A study of Homo sapiens with 6 samples.

Results

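Integrins and the proteins that gather at focal adhesions were followed in MDA-MB-231 cells depleted of ING2. The set holds 45 genes, 20 integrin chains and 25 intracellular adhesion proteins, picked by name from knowledge of the pathway. Of these, 43 could be measured among the 19777 genes of the array table. The other two had no probe set listed under their name alone. ITGB6 shares all its probe sets with a noncoding RNA gene, and FLNA is not named for any probe set in the annotation used here.

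MDA-MB-231 cells are a long-cultured human line of triple-negative breast cancer, with a mesenchymal shape. The study compared 3 samples given a non-targeting control siRNA with 3 given an siRNA against ING2, a PHD finger subunit of a SIN3 histone deacetylase complex. Both groups are the same unmodified line transfected with siRNA by the lipid reagent Dharmafect 1, and the labels name 1 ING2 siRNA. For the time from transfection to RNA, one label field gives 4 days and the other gives 3. Total RNA was read on 6 one-colour oligonucleotide arrays, 1 per sample. The labels do not say that the replicates came from separate cultures or transfections on separate days, so the error behind each p-value is the spread among these 6 arrays and could be technical only.

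Integrins are paired receptors of an alpha and a beta chain that join the extracellular matrix to the actin skeleton. Talins and kindlins bind the beta tail and switch the receptor on. Vinculin, alpha-actinin, filamin and tensins then tie it to actin, while the kinases FAK and SRC with scaffolds such as paxillin and the CAS proteins pass the signal on. In breast cancer cells of this kind, integrins are known for their part in adhesion, spreading and invasion.

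ING2 itself, the check of the knockdown, had intensities of 1400, 1349 and 1324 units with control siRNA and 163, 188 and 161 with ING2 siRNA, with no overlap between the groups. Vimentin (VIM), a mesenchymal marker, lay at percentile 99.6 of genes by intensity, the estrogen receptor gene ESR1 at percentile 40.9 and the epithelial cadherin gene CDH1 at percentile 24.3. The other luminal breast markers ranged widely. KRT18, KRT8, KRT19 and EPCAM lay at percentiles 99.3, 98.0, 97.7 and 82.7, and GATA3, FOXA1 and PGR at 55.6, 14.5 and 5.5. Median intensity per array ran from 75.7 to 77.2 in controls and from 78.4 to 81.5 after ING2 siRNA, without overlap (exact two-sided permutation test p = 0.1). With so few arrays, precision is limited. Genes of different intensity moved differently: the median log2 change was 0.12 in the dimmest of 10 equal bins of genes and -0.09 in the brightest. Log2 intensity spanned a narrower interquartile range in the knockdown arrays, 3.18 ± 0.08 beside 3.35 ± 0.02 (SD, n = 3, by an exact two-sided permutation test p = 0.1, the lowest value 3 against 3 arrays can give). The excess of 3' over 5' signal at GAPDH, which grows as RNA breaks down, was 0.316 ± 0.042 log2 units in knockdown arrays beside 0.205 ± 0.015 (SD, n = 3, p = 0.1 by the same exact test). The like measure at ACTB overlapped, 0.541 ± 0.096 beside 0.490 ± 0.110 (SD, n = 3, exact p = 0.6). The part of these array differences in the results below was not tested. Summed intensity of 7 blood cell markers ran from 832 to 916 in controls and 872 to 944 after ING2 siRNA, and that of 8 fibroblast markers from 1100 to 1202 and 1117 to 1145. Luminal breast markers (9 genes, 23261 to 26313 and 25598 to 25776) and basal markers (5 genes, 479 to 531 and 484 to 516) overlapped between the groups as well, as did 7 markers of the line's mesenchymal state (42977 to 46076 and 39429 to 44136). Single markers that passed in limma were EPCAM (log2 -0.95), LUM (-0.87), LYZ (-0.51) and DCN (0.35).

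Among the adhesion genes, 4 differed between the groups at a Benjamini-Hochberg adjusted p under 0.05 in limma, adjusted over all genes. The fibronectin receptor chain ITGA5 and the actin-organising LIM protein ZYX rose, and the laminin receptor chain ITGA6 and the CAS scaffold NEDD9 fell, each by between 1.41-fold and 1.49-fold. These are 2 rises and 2 falls among 43 genes, 4.65% in each direction. Over all genes 3.62% rose and 4.67% fell, 8.29% together against 9.30% of the adhesion genes, so the share is near that of the array as a whole. Groups did not overlap for 10 adhesion genes that were higher (23.3%, against 22.8% of all genes) and 5 that were lower (11.6%, against 13.8%). At an unadjusted p under 0.05, 18 of the 43 (41.9%) passed, against 32.9% of all genes. The median log2 change of the set was 0.11, beside 0.06 over all genes. The split of rises and falls also turned on how the arrays were scaled. It was 7 to 1 after quantile normalization, 4 to 1 after cyclic loess and 2 to 4 after median centring, against 2 to 2 in the deposited values. The split over all genes moved as well. In the same order it was 944 to 623, 447 to 686 and 260 to 1450, against 716 to 924 in the deposited values.

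**Figure D1:**
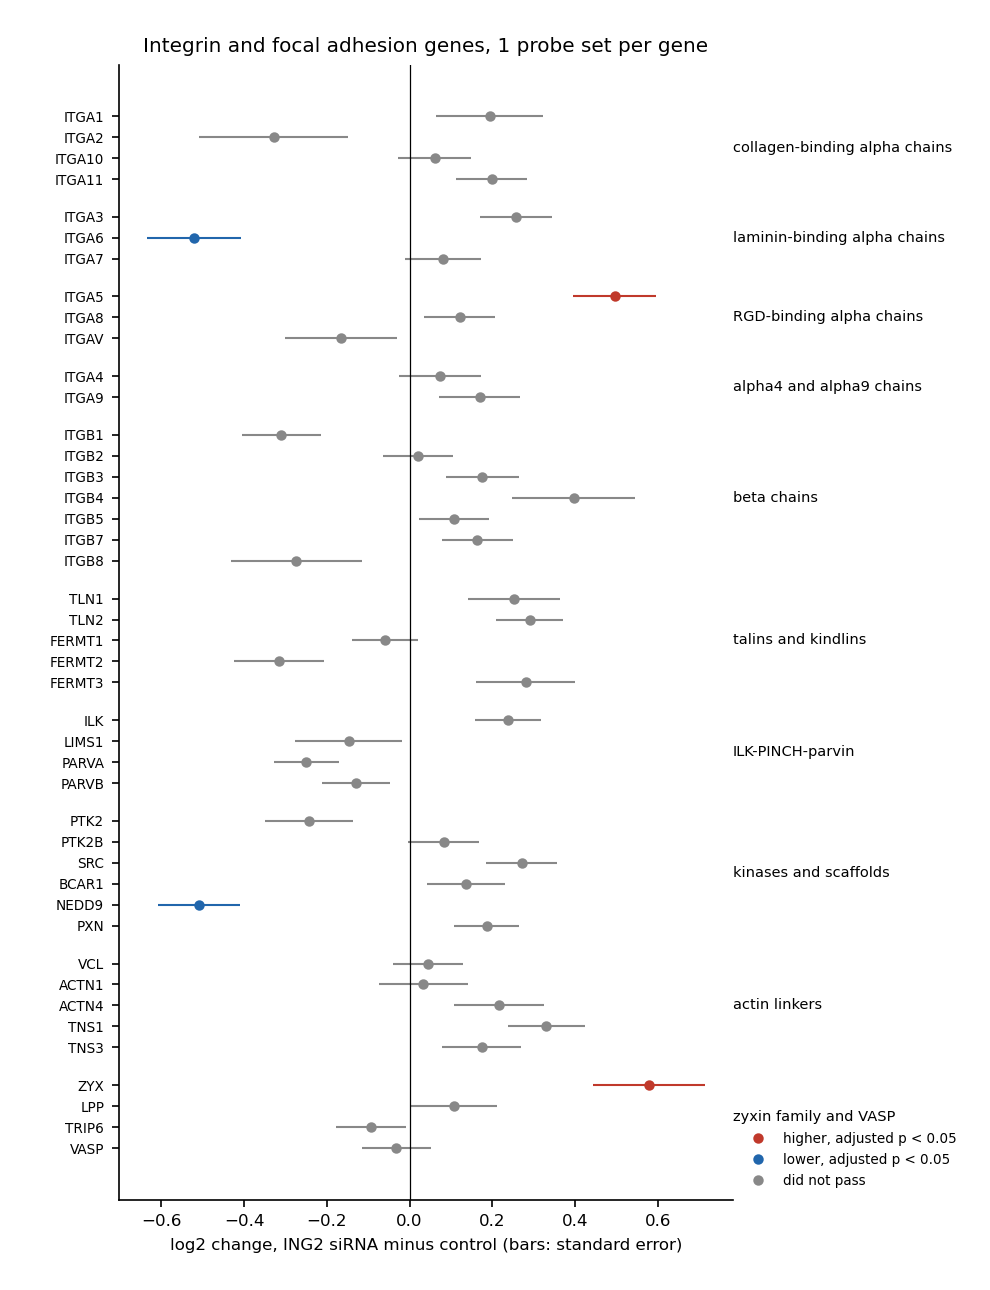
Log2 change of each of 43 adhesion genes (ING2 siRNA minus control, x axis, bars are the standard error of the limma fit on 3 against 3 arrays), 1 probe set per gene and genes grouped by role. ZYX and ITGA5 stand at the right and ITGA6 and NEDD9 at the left, and the other 39 genes did not pass the threshold.

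Among the integrin chains, 1 rose and 1 fell at gene level. ITGA5, which pairs with ITGB1 to form the main fibronectin receptor, read 714, 671 and 688 units in the controls and 892, 920 and 1126 after ING2 siRNA. Every knockdown array was above every control array, with the third knockdown replicate the highest. The log2 change was 0.50 (SE 0.10, n = 3 per group, limma adjusted p = 0.0279), and ITGA5 has 1 probe set. ITGA6, which pairs with ITGB1 or ITGB4 to bind laminin, read 2155, 2648 and 2611 units in the controls and 1492, 1827 and 1851 after ING2 siRNA. In both groups the first replicate was the lowest, and the groups did not overlap. ITGA6 fell by 0.52 on the log2 scale (SE 0.11, n = 3 per group, limma adjusted p = 0.0320), to 69.7% of control. It stood just outside the threshold after quantile normalization (-0.40, limma adjusted p = 0.0505), and likewise with cyclic loess (-0.42, limma adjusted p = 0.0515). Its dimmer probe set, 215177_s_at, fell further, from 967, 872 and 816 units to 535, 486 and 585 (log2 -0.73, SE 0.10, n = 3 per group, limma adjusted p = 0.00700 over all probe sets).

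Among the intracellular proteins, ZYX and NEDD9 passed. ZYX encodes zyxin, a LIM protein that gathers at adhesions and stress fibres under tension and recruits VASP. Its main probe set read 361, 345 and 335 units in the controls and 422, 510 and 645 after ING2 siRNA. The controls lay close together and the knockdown arrays spread widely above them. The log2 change was 0.58 (SE 0.14, n = 3 per group, limma adjusted p = 0.0359). The main probe set is of a kind that may bind related transcripts, but the other probe set gave almost the same change, from 261, 256 and 265 units to 314, 396 and 462 (log2 0.57, SE 0.13, n = 3 per group, limma adjusted p = 0.0350). Fitted over all probe sets after median centring, neither passed (limma adjusted p = 0.0575 and 0.0526). NEDD9, a scaffold of the CAS family that is phosphorylated by FAK and SRC, read 1238, 1408 and 1510 units in the controls and 895, 1031 and 991 after ING2 siRNA. All 3 knockdown arrays were below the lowest control. NEDD9 fell by 0.51 (SE 0.10, n = 3 per group, limma adjusted p = 0.0261). Its other 4 probe sets did not pass, with log2 changes from -0.16 to 0.26, and the mean of its 5 probe sets was -0.09 (limma adjusted p = 0.382).

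**Figure D2:**
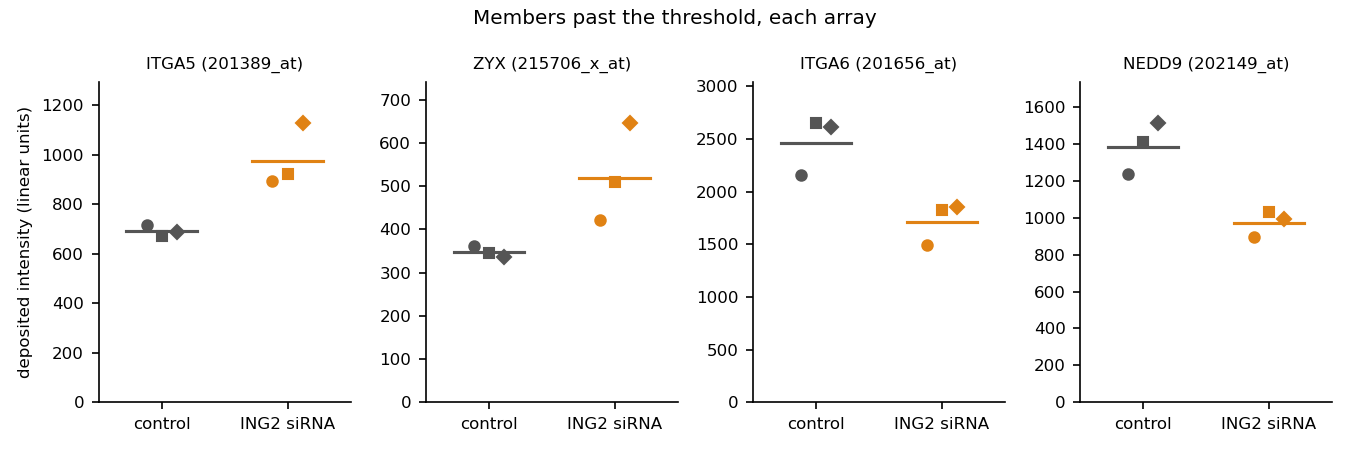
Deposited intensity (y axis, linear units from 0) of ITGA5, ZYX, ITGA6 and NEDD9 in each array, with circles, squares and diamonds for replicates 1, 2 and 3 and a line at the geometric mean of each group of 3. The groups do not overlap in any panel, and the ZYX arrays after ING2 siRNA run from 422 to 645 units.

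None of these 4 calls held in every fit that left out an array. ITGA5 (log2 0.39 to 0.56), ZYX (0.42 to 0.73), ITGA6 (-0.62 to -0.42) and NEDD9 (-0.59 to -0.44) each passed in 2 of the 6 fits, the one lacking control replicate 1 and the one lacking knockdown replicate 2. In the fits lacking control replicate 2, control replicate 3, knockdown replicate 1 and knockdown replicate 3, 0 adhesion genes passed in limma, while 13, 11, 18 and 11 of them had an unadjusted p under 0.05. In those 4 fits, 2, 3, 3 and 2 genes of the whole array passed. The share of all genes at an unadjusted p under 0.05 was not counted in those fits. With all 6 arrays it was 32.9%.

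Several single probe sets fell further than the brightest one, which stands for the gene. ITGB1 is the beta chain shared by most matrix-binding integrins. Its brightest probe set, 211945_s_at, read 11362, 11647 and 13446 units in the controls and 9240, 10633 and 9510 after ING2 siRNA, without overlap. Its log2 change, -0.31 with SE 0.10, did not pass in limma (adjusted p = 0.0658 over all genes). ITGB1 did pass at gene level in 7 of the 10 alternative settings that kept all arrays (limma adjusted p from 0.00177 to 0.0485), median centring among them, but not after quantile normalization or cyclic loess. The next brightest, 1553678_a_at, read 9085, 8766 and 8612 units in the controls and 5138, 4949 and 4852 after ING2 siRNA. The spread within each group was small beside the gap between them, and the probe set fell by 0.83 (SE 0.08, n = 3 per group, limma adjusted p = 0.00195 over all probe sets). A further one, 1553530_a_at, read 7632, 6899 and 7092 units and then 4390, 3790 and 3804 units, a log2 change of -0.85 (SE 0.09, n = 3, limma adjusted p = 0.00299). Both passed in all 6 fits without an array, with adjusted p from 0.00596 to 0.0285, and after each scaling tried. The 4 other ITGB1 probe sets were dim, at percentiles 0.156 to 23.5 of probe sets by intensity, with values from -0.40 to 0.36 that did not pass.

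FERMT2 encodes kindlin-2, which binds the beta tail beside talin. Its brightest probe set, 209210_s_at, read 1854, 2320 and 2088 units in the controls and 1601, 1878 and 1551 after ING2 siRNA, with 1 knockdown array inside the control range (log2 -0.32, SE 0.11, n = 3 per group, limma adjusted p = 0.0834). At gene level FERMT2 passed in 4 of the 10 alternative settings that kept all arrays. Probe set 209209_s_at read 424, 406 and 401 units and then 238, 262 and 247 units. Here the groups were far apart and the probe set fell by 0.72 (SE 0.08, n = 3 per group, limma adjusted p = 0.00337 over all probe sets). It also passed in all 6 fits without an array, as did 215177_s_at of ITGA6.

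**Figure D3:**
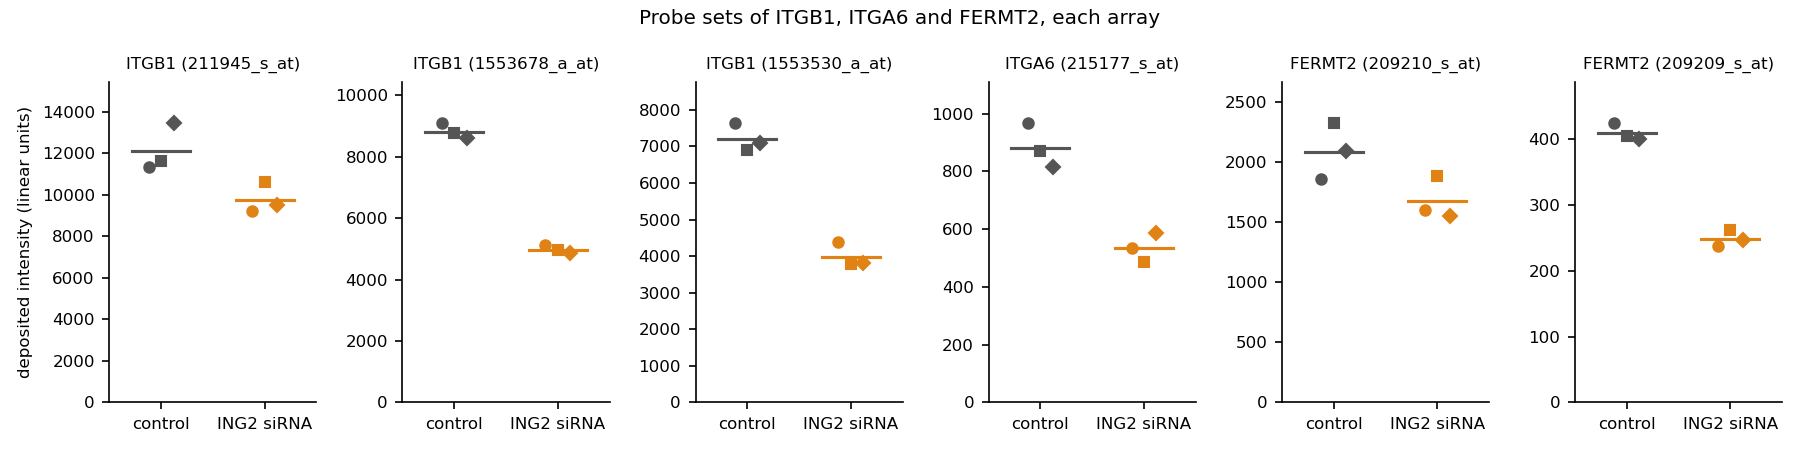
Deposited intensity (y axis, linear units from 0) of 3 probe sets of ITGB1, 1 of ITGA6 and 2 of FERMT2 in each array, with circles, squares and diamonds for replicates 1, 2 and 3 and a line at each group's geometric mean. The gap between groups is wide for 1553678_a_at, 1553530_a_at, 215177_s_at and 209209_s_at and narrower for the brightest probe sets of ITGB1 and FERMT2.

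FAK and alpha-parvin had the same arrangement with less stable calls. PTK2, which encodes the focal adhesion kinase FAK, had a log2 change of -0.24 (limma adjusted p = 0.143) in its brightest probe set. Its probe set 207821_s_at read 811, 951 and 855 units in the controls and 663, 629 and 593 after ING2 siRNA, log2 -0.47 (SE 0.09, n = 3, limma adjusted p = 0.0231). The remaining PTK2 probe sets had -0.08 and -0.07 and did not pass. PARVA, which links the kinase-like protein ILK to actin, had -0.25 (limma adjusted p = 0.0673) in its brightest probe set. Its probe set 222455_s_at read 264, 259 and 305 units and then 152, 214 and 194 units, log2 -0.58 (SE 0.13, n = 3, limma adjusted p = 0.0336). The remaining PARVA probe sets ran from -0.21 to 0.12 and did not pass. Among them 213675_at and 222454_s_at, both brighter than 222455_s_at, had -0.09. Probe sets 207821_s_at and 222455_s_at each passed in 2 of the 6 fits without an array. At gene level PTK2 passed in 1 and PARVA in 4 of the 10 alternative settings that kept all arrays.

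Beside that of ZYX, probe sets of TNS1 and SRC rose beyond the gene-level choice. TNS1, a tensin that couples integrin tails to actin, read 87.9, 92.3 and 91.9 units in the controls and 128, 104 and 111 after ING2 siRNA in its main probe set (log2 0.33, SE 0.09, n = 3 per group, limma adjusted p = 0.0535). The groups did not overlap. At gene level TNS1 passed in 6 of the 9 alternative settings that kept all arrays and this gene. Its dimmer probe set 218864_at rose from 45.2, 43.5 and 48.3 units to 61.5, 60.6 and 67.6 (log2 0.47, SE 0.09, n = 3 per group, limma adjusted p = 0.0190), and passed in 2 of the 6 fits without an array. The remaining TNS1 probe sets ran from 0.07 to 0.23 and did not pass. The lowest of these values was that of 221246_x_at, which had a geometric mean of 97.3 units in controls. SRC, the kinase that acts with FAK, read 455, 505 and 494 units and then 593, 546 and 616 units in its main probe set (log2 0.27, limma adjusted p = 0.0682). Its dim probe set 221281_at rose by 0.36 (SE 0.09, n = 3 per group, limma adjusted p = 0.0458), and missed the threshold with cyclic loess (0.25, limma adjusted p = 0.103), quantile normalization (0.28, limma adjusted p = 0.0773) or median centring (0.28, limma adjusted p = 0.0719). It passed in 1 of the 6 fits without an array. The remaining SRC probe sets ran from 0.03 to 0.32 and did not pass. At gene level SRC passed in 3 of the 10 alternative settings that kept all arrays.

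Counted over all 139 probe sets of the 43 genes, 5 rose (3.60%, against 2.18% of all 41091 probe sets naming 1 gene) and 8 fell (5.76%, against 5.12%). They belong to 4 genes with a rise (ITGA5, ZYX, SRC and TNS1) and 6 with a fall (ITGB1, ITGA6, FERMT2, PTK2, PARVA and NEDD9). No gene had both. The share of all genes with any probe set past the threshold was not counted, so these gene counts have no background. The adhesion genes also had more probe sets each, 139 for 43 genes against 41091 for 19777. Of 33 genes with several probe sets, 17 had all of them on one side of 0.

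The 9 probe sets that passed beside a gene's brightest one were set against it by their log2 ratio within each array. Since they were chosen for having passed, the ratios are a description. For ITGB1, the ratio of 1553678_a_at to the brightest probe set was -0.46 ± 0.17 with control siRNA and -0.97 ± 0.13 with ING2 siRNA (SD, n = 3). That of 1553530_a_at was -0.75 ± 0.17 and -1.29 ± 0.21, and that of the FERMT2 pair was -2.34 ± 0.20 and -2.75 ± 0.10. For these and for PARVA the groups did not overlap, while they did for ITGA6, PTK2, SRC, TNS1 and ZYX. Where in the transcripts the probes lie was not analysed here.

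**Figure D4:**
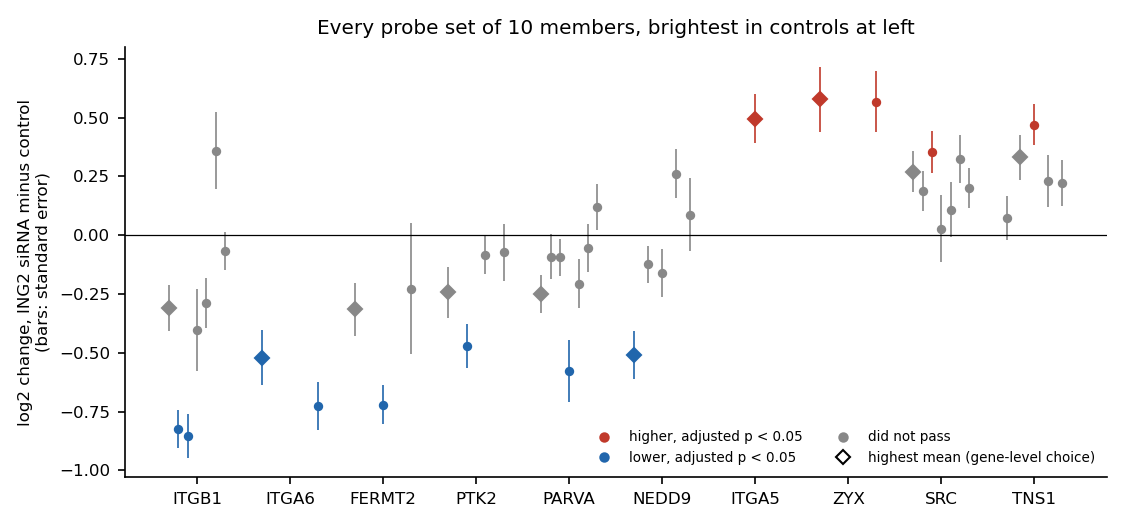
Log2 change (ING2 siRNA minus control, y axis, bars are standard errors of the limma fit on 3 against 3 arrays) of every probe set of 10 adhesion genes with at least 1 probe set past the threshold, brightest in controls at the left of each gene. Diamonds mark the probe set used at gene level, and the lowest values are the ITGB1 probe sets at -0.83 and -0.85.

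The promoters of the 4 genes that passed at gene level are shown, with that of ITGB1, whose probe sets fell furthest. The windows are the 250 bases before the start site, 5′ to 3′, from RefSeq on GRCh38.p14, with ITGA5 at chr12:54419267-54419516 (minus strand), ZYX at chr7:143381095-143381344 (plus strand), the first of the 2 listed ITGA6 starts at chr2:172427086-172427335 (plus strand), the first of the 3 of NEDD9 at chr6:11382349-11382598 (minus strand) and the first of the 2 of ITGB1 at chr10:32958231-32958480 (minus strand). Capitals mark matches on either strand to GGAATG (a TEAD motif) or GGGCGG (an SP1 motif), none of which overlap.
ITGA5: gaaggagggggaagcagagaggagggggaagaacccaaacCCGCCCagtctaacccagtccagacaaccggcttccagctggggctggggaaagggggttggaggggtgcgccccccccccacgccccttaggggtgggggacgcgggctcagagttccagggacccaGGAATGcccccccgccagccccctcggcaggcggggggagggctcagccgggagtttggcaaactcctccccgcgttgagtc
ZYX: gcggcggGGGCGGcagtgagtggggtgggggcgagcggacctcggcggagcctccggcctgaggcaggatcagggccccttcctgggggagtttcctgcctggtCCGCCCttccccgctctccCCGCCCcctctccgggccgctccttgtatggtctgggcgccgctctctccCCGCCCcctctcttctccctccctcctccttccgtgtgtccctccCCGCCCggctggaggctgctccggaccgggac
ITGA6: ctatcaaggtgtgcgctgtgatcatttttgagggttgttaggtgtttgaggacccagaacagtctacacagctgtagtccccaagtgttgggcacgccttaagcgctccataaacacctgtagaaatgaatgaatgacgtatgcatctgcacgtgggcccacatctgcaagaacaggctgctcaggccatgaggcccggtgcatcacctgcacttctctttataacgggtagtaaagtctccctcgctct
NEDD9: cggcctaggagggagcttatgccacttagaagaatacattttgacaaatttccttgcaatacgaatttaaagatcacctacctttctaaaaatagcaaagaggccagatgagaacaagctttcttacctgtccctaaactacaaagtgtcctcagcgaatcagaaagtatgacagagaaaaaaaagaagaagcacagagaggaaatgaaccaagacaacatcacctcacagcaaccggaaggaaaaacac
ITGB1: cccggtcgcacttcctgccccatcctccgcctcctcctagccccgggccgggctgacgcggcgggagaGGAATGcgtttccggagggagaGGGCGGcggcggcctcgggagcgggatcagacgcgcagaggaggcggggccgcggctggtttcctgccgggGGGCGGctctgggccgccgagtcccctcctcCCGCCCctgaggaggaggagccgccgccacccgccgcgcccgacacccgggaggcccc
ITGA5 and ITGB1 each hold 1 TEAD match, at -82 to -77 and -182 to -177 from the start, and ZYX none. SP1 matches number 1 in ITGA5, 5 in ZYX and 3 in ITGB1. The ITGA6 and NEDD9 windows hold no match to either motif, though windows at other starts of both genes hold an SP1 match. Neither the AP-1 motif TGACTCA nor the CArG box of serum response factor is in these windows, which says only that these letters are not there.

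Promoter windows were listed for 34 of the 45 genes, 67 windows in all. The TEAD motif was in 16.4% of them, against 11.9% of all 35116 windows of the table, the SP1 motif in 49.3% against 42.6%, and the AP-1 motif in 7.46% against 4.20%. The CArG box was in 5.97% (ACTN1, FLNA, ITGB6 and LPP) against 1.16%. The gene-level log2 changes of ACTN1 (0.03) and LPP (0.11) did not pass. A match describes the sequence and shows neither binding nor a cause.

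Of the collagen-binding alpha chains, which pair with ITGB1, 0 of 4 passed in limma, and 1 had an unadjusted p under 0.05. ITGA2 read 1242, 2076 and 1935 units in the controls and 1164, 1553 and 1394 after ING2 siRNA. The first replicate was lowest in both groups and the groups overlapped (log2 -0.33, SE 0.18, limma adjusted p = 0.226). Without control replicate 1, the lowest control, ITGA2 had -0.56 and passed (limma adjusted p = 0.0266). With a block for replicate number it also passed (-0.33, limma adjusted p = 0.0455). ITGA1 (0.19), ITGA10 (0.06) and ITGA11 (0.20) had values above 0, ITGA11 with no overlap between the groups.

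Of the laminin-binding chains only ITGA6 passed among the 3 measured. ITGA3, which pairs with ITGB1 in the other main laminin receptor of epithelial cells, read 2679, 2528 and 2589 units in the controls and 2841, 3195 and 3300 after ING2 siRNA. All knockdown arrays were higher, but the log2 change, 0.26 with SE 0.09, did not pass (limma adjusted p = 0.0775). ITGA3 passed after quantile normalization (0.39, limma adjusted p = 0.0346), and with cyclic loess (0.36, limma adjusted p = 0.0433). In all, it passed in 4 of the 10 alternative settings that kept all arrays, and in 0 of the 6 fits without an array. Within arrays, the log2 ratio of ITGA3 to ITGA6 was 0.31, -0.07 and -0.01 in controls and 0.93, 0.81 and 0.83 after ING2 siRNA. This ratio was chosen after its values were seen and is given as a description only. ITGA7, the muscle laminin receptor chain, had a log2 change of 0.08.

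The remaining alpha chains gave small values. ITGAV, the vitronectin receptor chain, read 1927, 2651 and 2597 units and then 1844, 2355 and 2162 units, with overlap (log2 -0.17, limma adjusted p = 0.403). ITGA8, an RGD-binding chain, had 0.12. ITGA4 and ITGA9, which bind the alternatively spliced part of fibronectin and tenascin among other ligands, had 0.07 and 0.17 and lay in the dimmest 25% of genes.

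Apart from ITGB1, the beta chains did not pass in any probe set that names 1 gene, with p-values adjusted over all probe sets. ITGB4, the partner of ITGA6 in hemidesmosomes, read 1044, 816 and 731 units in the controls and 943, 1155 and 1305 after ING2 siRNA. Its log2 change of 0.40 was among the larger ones of the set, but the groups overlapped and the error was wide (SE 0.15, limma adjusted p = 0.100). ITGB4 passed with array weights (0.51, limma adjusted p = 0.0291) and without control replicate 1 (0.54, limma adjusted p = 0.0365). ITGB8, a chain that binds latent TGF-beta, had -0.27, and ITGB5 (0.11), ITGB3 (0.18), ITGB7 (0.16) and the leukocyte chain ITGB2 (0.02) lay above 0. With each gene's most variable probe set, ITGB3 had 0.33 and passed (limma adjusted p = 0.0457). The 4 probe sets that ITGB6 shares with the noncoding gene LINC02478 had log2 changes from -0.15 to 0.22, and none passed.

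Among talins and kindlins 0 of 5 passed at gene level in limma. TLN2 read 156, 165 and 169 units in the controls and 191, 197 and 211 after ING2 siRNA, each knockdown array above each control (log2 0.29, SE 0.08, n = 3 per group, limma adjusted p = 0.0530). It passed in 7 of the 10 alternative settings that kept all arrays (limma adjusted p from 0.0337 to 0.0488), quantile normalization among them (0.31). TLN2 passed in 0 of the 6 fits without an array. TLN1, the main talin outside muscle and brain, had 0.25 (limma adjusted p = 0.143) with overlapping groups. The epithelial kindlin FERMT1 had -0.06 and the blood-cell kindlin FERMT3 had 0.28.

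ILK, PINCH and parvin form a complex that joins the beta tail to actin. ILK read 3553, 3665 and 3412 units in the controls and 3995, 4236 and 4305 after ING2 siRNA, without overlap (log2 0.24, SE 0.08, n = 3 per group, limma adjusted p = 0.0764). It passed after quantile normalization (0.36, limma adjusted p = 0.0332), and with cyclic loess (0.35, limma adjusted p = 0.0395). In all, ILK passed in 7 of the 10 alternative settings that kept all arrays, and in 0 of the 6 fits without an array. PARVA read 1115, 1075 and 1067 units in its brightest probe set and then 868, 928 and 944 units, all below the controls. PARVB had -0.13. LIMS1, which encodes PINCH, had -0.15 in a dim probe set. A brighter one shared with its copies LIMS3 and LIMS4 had -0.25 (limma adjusted p = 0.110 over all probe sets of the table). Another brighter one, shared with LIMS4, had -0.06 (limma adjusted p = 0.862 in the same fit), so the value of LIMS1 is uncertain.

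Of the other kinases and scaffolds, PXN, which encodes paxillin, read 1120, 1132 and 1076 units in the controls and 1196, 1288 and 1306 after ING2 siRNA. All knockdown arrays were higher, by a log2 difference of 0.19 that did not pass (SE 0.08, n = 3 per group, limma adjusted p = 0.135), but did after quantile normalization (0.31, limma adjusted p = 0.0437). BCAR1, the founding CAS scaffold and a relative of NEDD9, had 0.14, and the FAK relative PTK2B had 0.08.

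The actin linkers had 0 of 5 past the threshold at gene level in limma, all with values above 0. VCL (vinculin) read 6174, 6318 and 6150 units and then 5951, 6396 and 6908 units, with overlapping groups and a log2 change of 0.04. ACTN1 and ACTN4, the alpha-actinins outside muscle, had 0.03 and 0.22, and TNS3 had 0.17. In the zyxin family, LPP (0.11) and TRIP6 (-0.09) and the zyxin partner VASP (-0.03) did not pass. TRIP6 and VASP lay above 0 after quantile normalization (0.03 and 0.07), and VCL and ACTN1 below 0 after median centring (-0.03 and -0.04). The 8 probe sets of LPP ran from -0.49 to 0.33.

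**Figure D5:**
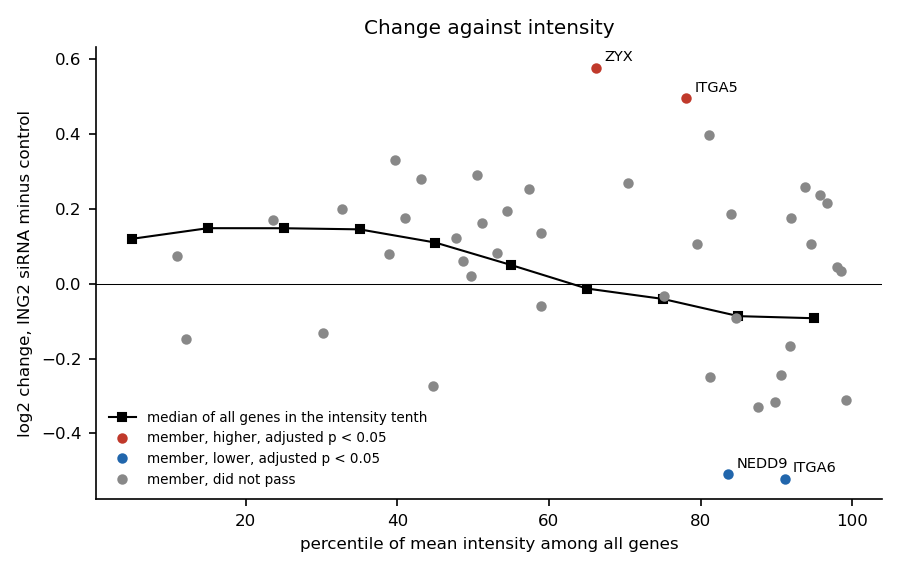
Log2 change (ING2 siRNA minus control, y axis) of the 43 adhesion genes against the percentile of their mean intensity among all genes (x axis), with the median change of all genes in each of 10 bins as squares. The squares run from 0.12 in the dimmest bin to -0.09 in the brightest, and ZYX and ITGA5 lie above and NEDD9 and ITGA6 below that line.

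Brighter genes tended to have lower values on these arrays, so each adhesion gene can be read against genes of like intensity. Taken from the median of its intensity bin, the set's median was 0.05. Of the 43 genes, 30 were brighter than the median gene and 3 lay in the dimmest 25%.

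Other adhesion genes, in 7 lists, gave 9 rises and 8 falls among 176 measured genes, 9.66% in all beside 8.29% of all genes. In the same 4 fits lacking an array, 0 of them passed in limma (46, 40, 57 and 44 at an unadjusted p under 0.05). The share of all genes at that unadjusted p was not counted in those fits.

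Of 30 measured integrin ligands, 3 rose and 1 fell, with a median log2 change of 0.14. The type IV collagen chain COL4A2 (0.40, SE 0.10, limma adjusted p = 0.0414), the type VI chain COL6A2 (0.39, SE 0.10) and the laminin-332 chain LAMB3 (0.35, SE 0.09) rose, none of them past the threshold after median centring. The laminin chain LAMB1 fell by 0.35 (SE 0.08, limma adjusted p = 0.0373). Quantile normalization gave LAMB1 -0.25 (limma adjusted p = 0.0802).

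In 28 other focal adhesion adaptors 0 rose and 2 fell in limma. RSU1, which binds PINCH and so belongs with the ILK complex, had geometric means of 1311 units with control and 926 with ING2 siRNA (log2 -0.50, SE 0.10, limma adjusted p = 0.0266). The zyxin relative LIMD1 fell by 0.51 (SE 0.13, limma adjusted p = 0.0457). Quantile normalization gave LIMD1 an adjusted p of 0.0602, and its most variable probe set had 0.12. With the mean of all probe sets, RSU1 had -0.09 (limma adjusted p = 0.471).

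Of 37 genes that act downstream of FAK and SRC, 2 rose and 1 fell. GIT1, a paxillin-binding adaptor, rose by 0.36 (SE 0.08, limma adjusted p = 0.0348; 0.0539 after median centring). ELMO1, part of a RAC activator, rose by 0.53 from 20.7 units, a dim value, and missed the threshold with cyclic loess (0.41, limma adjusted p = 0.0616). The phosphatase PTPN12, which acts on CAS and paxillin, fell by 0.36 (SE 0.08), with adjusted p = 0.0813 after cyclic loess.

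Among 30 regulators of integrin activation and traffic, PIP5K1C, which makes the phosphoinositide that activates talin, rose from a geometric mean of 397 to 563 units (log2 0.50, SE 0.11, limma adjusted p = 0.0313) and none fell. Of 27 genes of the actin and myosin skeleton, 1 rose and 3 fell. The formin DIAPH1 rose by 0.31 (SE 0.08, limma adjusted p = 0.0482; 0.106 after median centring), and the actin capping subunits CAPZA2 (-0.71, SE 0.11, limma adjusted p = 0.0193) and CAPZA1 (-0.45, SE 0.10) and the calponin CNN3 (-0.46, SE 0.08) fell. CAPZA1 had adjusted p = 0.0601 after cyclic loess and a value of -0.10 with the mean of its probe sets.

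Of 18 genes around SRF and YAP, which read out tension in the actin skeleton, TEAD4 rose by 0.34 (SE 0.08, limma adjusted p = 0.0352) and YAP1 fell by 0.35 (SE 0.08, limma adjusted p = 0.0359). YAP1 had adjusted p = 0.0803 after cyclic loess, and TEAD4 had 0.0658 after median centring. Among 6 blood-cell integrin chains ITGAD rose by 0.30 (SE 0.08, limma adjusted p = 0.0464), and missed the threshold with cyclic loess (0.24, limma adjusted p = 0.0881). ITGAD lay at percentile 44.8 of genes by intensity, and its change was 0.19 when taken from the median of its intensity bin.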

How the data were processed

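The values deposited by the authors are linear intensity per probe set, with 1 column for each array. Per the submitters' processing notes, RMA and R 2.12 were used. No source used here gives the step that made the values linear.

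Of 54675 probe sets, 62 controls were left out and 41091 named 1 gene. Names came from a platform annotation of 2016, updated by gene identifier to RefSeq symbols (19735 of 19777 genes matched). A gene was represented by its probe set of highest mean across the 6 arrays. Log2 intensity was taken with no pseudocount and no filter, and ING2 siRNA was compared with control by limma 3.58.1 in R 4.3.3 (lmFit and eBayes, no covariate), with Benjamini-Hochberg adjustment over all genes and a threshold of 0.05. Single probe sets were fitted the same way over all 41091. Standard errors are those of the fit. Single values per array had an exact permutation test. The fit was tested on simulated data.

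The genes and lists were chosen with earlier results of these data known. Named were all genes of the set, with full values for those past the threshold or, without overlap, changed by at least 0.3 on the log2 scale, and in each list up to 3 rises and 3 falls past it. Other values were chosen after they were seen. Alternatives were other scalings, probe set choices, a dim filter, a pseudocount of 16, eBayes with a trend, array weights, a replicate block and leaving out each array.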

Additional observations from a re-analysis of the deposited data

How the results depend on the processing

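With 3 arrays a group, leaving out 1 array at a time moved the number of adhesion genes past the threshold from 0 to 3 rises and from 0 to 4 falls, and that of the 7 lists from 0 to 14 rises and from 0 to 17 falls. Over all genes, rises and falls numbered 982 and 1631 without control replicate 1, and 1227 and 1350 without knockdown replicate 2. In each other fit without an array, 0 genes rose and 2 or 3 fell. The median log2 change of the adhesion genes ran from 0.08 to 0.13. The adhesion rises and falls numbered 2 and 4 after median centring, 7 and 1 after quantile normalization, 4 and 1 after cyclic loess, 5 and 4 with dim genes left out, 5 and 3 with the mean of probe sets, 5 and 6 with each gene's most variable probe set, 5 and 3 with a pseudocount of 16, 6 and 3 with an intensity trend, 7 and 4 with array weights, and 4 and 6 with each probe set on its own. Over all genes, rises and falls numbered 260 and 1450 after median centring, 944 and 623 after quantile normalization and 447 and 686 after cyclic loess. With dim genes left out they were 492 and 1243 of 9889 genes, 30 of these being adhesion genes. They were 1229 and 1391 with the mean of probe sets and 1307 and 1953 with the most variable one. The pseudocount gave 856 and 1187, the intensity trend 971 and 1436 and array weights 1927 and 1931. With each probe set on its own, genes were not counted over the whole array. The cause of these shifts was not tested, except that the choice of probe set sets its own counts. For the 7 lists, in the same order up to array weights, rises and falls numbered 2 and 17, 16 and 3, 12 and 4, 12 and 16, 11 and 11, 12 and 28, 14 and 13, 16 and 16, and 23 and 22. For replicates 1, 2 and 3, deviations from the group means correlated by 0.26, 0.29 and -0.02 between the control and knockdown array. These values do not settle whether replicate numbers pair the samples. The replicate block gave 4 rises and 6 falls in the adhesion genes and 18 and 20 in the lists. Over all genes it gave 1630 and 1878, against 716 and 924 without it. With the block ITGA2 (adjusted p = 0.0455) and ITGB8 (0.0471) were among the falls.

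The fits of single probe sets under other scalings and without 1 array were chosen after seeing the data. At gene level, ITGA5 and ZYX passed under each of the 10 settings that kept all arrays. ITGA6 did not pass under 2 of them, quantile normalization and cyclic loess, and NEDD9 under 1, the mean of probe sets. Some values changed sign, most of them near 0. They did so after median centring for ITGA10 (-0.011), ITGB2 (-0.051), VCL (-0.027) and ACTN1 (-0.038), after quantile normalization for ITGA4 (-0.034), FERMT1 (0.0042), TRIP6 (0.029) and VASP (0.071), and with cyclic loess for ITGA7 (-0.0060), ITGA4 (-0.042), ITGB2 (-0.011), TRIP6 (0.0021) and VASP (0.044). With array weights ITGB2 (-0.020) and ACTN1 (-0.0055) did. The mean of probe sets turned ITGA9 (-0.039), ITGB5 (-0.11), FERMT1 (0.077), PARVB (0.060) and LPP (-0.028). The most variable probe set turned ITGA1 (-0.16), ITGA9 (-0.059), ITGB2 (-0.12), ITGB5 (-0.34), FERMT1 (0.21), PARVB (0.33), LPP (-0.49) and LIMD1 (0.12). Without 1 array, values crossed 0 for ITGB2 (-0.023 to 0.075), ACTN1 (-0.015 to 0.12), ITGA10 (-0.0076 to 0.11), ITGA4 (-0.0037 to 0.17), VASP (-0.086 to 0.018) and VCL (-0.010 to 0.097). None of these genes but LIMD1 had passed.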
